A study of Mus musculus with 2 samples.

Results

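The fast signals between hippocampal neurons pass through receptors for 2 transmitters, glutamate and GABA, and the 47 genes described here encode the subunits of those receptors. They were taken by symbol from the 19059 genes in the files: every gene for a subunit of the AMPA (4 genes), kainate (5), NMDA and delta (9) and metabotropic glutamate (8) receptors and of the GABA-A (19) and GABA-B (2) receptors. Their counts were summed within cell classes, so that the values below show which classes of neurons and glia carried which subunits, and how the levels compared between the untreated and the tomatidine-fed mice.

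Both libraries came from the hippocampus of aged C57BL/6 mice, which were 21 months old when the diets began. The study used both sexes, and the sexes of the mice in each library are not given. The control mice ate standard chow, and the treated mice ate the chow with 0.05% tomatidine, a steroidal alkaloid from tomato, for 3 months. For each diet the hippocampi of 4 mice were pooled into 1 library of single fixed cells. Each diet has a single library, so the diets could not be tested against each other and no p-value is given, and diet, mice, dissection and library cannot be told apart. Transcripts were counted with probes as UMIs (unique molecular identifiers, each 1 captured probe molecule), so a level is a number of UMIs scaled to a fixed total of the same class, as counts per 1e+06 UMIs (CPM). Probes differ in number and capture between genes, so a level was compared between classes or libraries for 1 gene and not between genes.

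The files held 31097 cells and 30221 were kept, 15423 of the control with a median of 7217 UMIs and 14798 of the tomatidine library with a median of 7572 UMIs. A gate on UMIs of marker genes put 17058 of them into 11 classes, 7 of neurons and 4 of glia, and left 11455 cells (37.9%) without a class because their markers were too few or came from more than 1 class, which also set aside cells that may be doublets. The remaining 1708 cells went to classes that are not described here, such as CA2 neurons, other GABAergic neurons, fibroblasts, endothelial cells and choroid plexus. The neuron classes were granule neurons of the dentate gyrus (2221 cells in control and 1740 in tomatidine), CA1 pyramidal neurons (799 and 785), CA3 pyramidal neurons (187 and 201), deep-layer excitatory neurons with markers of deep cortex and subiculum (405 and 349), thalamic or other subcortical neurons (366 and 595), and 2 classes of inhibitory interneurons named for their embryonic origin, MGE (413 and 450) and CGE (136 and 153). The glia were astrocytes (692 and 913), oligodendrocyte precursor cells or OPCs (256 and 269), oligodendrocytes (2778 and 2071) and microglia (693 and 586). Each name stands for cells that resemble that type by the markers of the gate. All markers of each class that were in the files were detected in it, and none of the 10 genes that led a class by fold was a marker of another class. The cells were chosen by these same markers, so neither result is a test of the names. The libraries share 292 cell barcodes. The summed UMIs of a class ran from 1856024 in OPCs of the tomatidine library to 41827574 in granule neurons of the control. The filter on cells weighed more on some classes than on others. With all deposited cells, CA3 neurons held 309% of their summed UMIs in control and 231% in tomatidine. CA1 neurons held 160% and 149%, MGE interneurons 160% and 159%, CGE interneurons 172% and 147% and granule neurons 108% and 107%. Subcortical neurons differed in kind between the libraries, so they are described in each library but not compared between diets. All intervals are 95% intervals, exact Poisson for a level and exact binomial for a ratio or a share, and cover counting error only, not the differences between mice.

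AMPA receptors are cation channels built of 4 subunits (Gria1 to Gria4) that carry the fast excitatory current. Kainate receptors (Grik1 to Grik5) are related channels that tune transmission, with Grik4 and Grik5 as high-affinity partners of Grik1 to Grik3. NMDA receptors, the calcium-permeable channels of synaptic plasticity, pair the obligatory subunit Grin1 with Grin2 subunits, and Grin3 subunits make them less permeable to calcium. Metabotropic glutamate receptors signal through G proteins: those of group I, such as Grm5, excite, whereas those of groups II and III inhibit and often sit on axon terminals. GABA-A receptors are chloride channels, mostly of alpha, beta and gamma subunits at synapses, while receptors with the delta subunit lie outside synapses and pass a tonic current. GABA-B receptors are obligate pairs of Gabbr1 and Gabbr2 and act through G proteins.

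A pair of known sites in these genes shows how close the subunits are in sequence and why the choice among them matters. In the pore of AMPA receptors, 1 codon for glutamine (Q) is altered in the Gria2 transcript by RNA editing, which is known to make receptors that hold Gria2 nearly impermeable to calcium. The stretches below are the coding strand of the GRCm38 (mm10) annotation, 5′ to 3′, with that codon in capitals. The probe counts do not show editing.
Gria1: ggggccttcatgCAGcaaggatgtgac
Gria2: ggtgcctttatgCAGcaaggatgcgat
Gria3: ggtgcttttatgCAGcaaggatgtgat
Gria4: ggtgcctttatgCAAcaaggatgtgac
They lie at chr11:57243082-57243108 (plus strand), chr3:80706899-80706925 (minus), chrX:41610253-41610279 (plus) and chr9:4464125-4464151 (minus), each inside a coding exon. Of the 27 bases, Gria1, Gria3 and Gria4 share 23, 25 and 24 with Gria2, and all 4 genes encode glutamine at the site. The second site lies in the alpha subunits of GABA-A receptors, where a histidine (H) is needed for classical benzodiazepines to bind. The codon is in capitals again.
Gabra2: gataccttctttCACaatgggaaaaag
Gabra3: gataccttcttcCACaatggtaaaaaa
Gabra4: gatactttcttcAGGaatggaaagaaa
Gabra5: gacacgttcttcCACaacggcaagaag
Gabra6: gacacttttttcCGGaatgggaaaaag
These 5 coding stretches are on the minus strand at chr5:71014493-71014519, chrX:72501156-72501182, chr5:71641140-71641166, chr7:57488879-57488905 and chr11:42317635-42317661. Gabra2, Gabra3 and Gabra5 encode histidine there, and Gabra4 and Gabra6 encode arginine (R). Many GABA-A genes stand side by side: Gabra6 and Gabrb2 on chromosome 11, Gabrg1, Gabra2, Gabra4 and Gabrb1 on chromosome 5, Gabrg3 and Gabra5 on chromosome 7, Gabre, Gabra3 and Gabrq on the X chromosome, and Gabrr2 and Gabrr1 on chromosome 4.

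Of the 47 genes, 42 had at least 100 UMIs in the 7 neuron classes of both libraries together. The other 5 were Gabra6 (4 UMIs), Gabrp (1), Gabrr1 (28), Gabrr3 (14) and Grm6 (0), which are known mainly from cerebellar granule cells (Gabra6), non-neuronal tissue (Gabrp) and retina (the rest). For Grm6 in granule neurons, 0 UMIs allow up to 0.0717 CPM in control and 0.0962 CPM in tomatidine (3 counts each). For 35 of the 42 genes the same neuron class had the highest level in both libraries: subcortical neurons for 8, CA1 and MGE interneurons for 6 each, CGE interneurons for 5, granule neurons for 4, and CA3 and deep-layer neurons for 3 each. For 29 of these 35, both libraries' levels of the top class exceeded all levels of the other neuron classes, judged without intervals. Of these genes, 8 were at least 2-fold over their second class in each library: Grm2 in granule neurons, Grik4 in CA3, Grik3 and Grm3 in deep-layer neurons, Gabrr2 in CGE interneurons, and Grin2c, Grm4 and Gabrq in subcortical neurons. For the other genes with a shared top class, a second class came within 2-fold in at least 1 library. Some gaps were small: Gabbr1 was at 792 CPM in CGE interneurons of tomatidine and at 786 CPM in CA3 of control. The matching shares of all genes were not computed, so these counts do not show whether receptor genes are unusual. The top class depended on the cells and the averaging for some genes. With all deposited cells 27 of the 35 kept it in both libraries, with the limit of 6000 genes per cell from the study's quality control 26, and with the mean of single-cell CPM 30. Gria2, Grik1, Grin3b and Grm7 lost it under all 3 of these, Gabra3 and Grik5 with all deposited cells and with the limit, Grid1 with the limit and with the mean, and Grin2a with all deposited cells. Gabbr1 and Gabre lost it with the limit. With a stricter gate (a 4-fold lead and at least 10 marker UMIs) 32 kept it, and Gabbr1, Gabra3 and Gabrr2 did not.

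**Figure D1:**
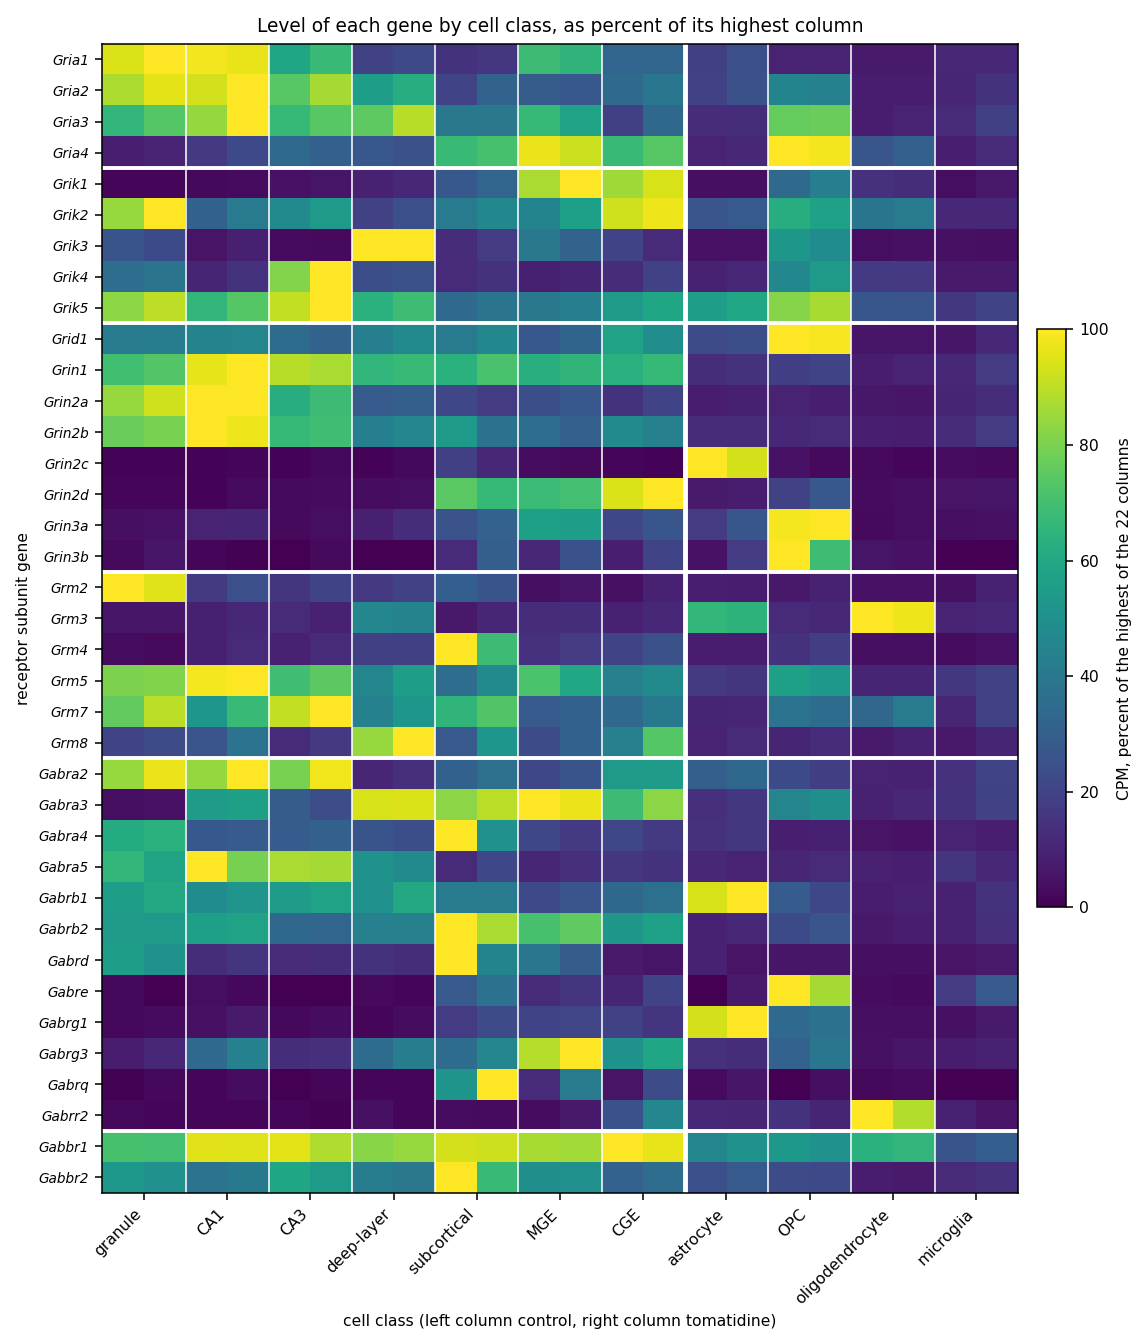
Heat map of receptor genes with at least 100 UMIs in neurons (rows, by family) over the 11 cell classes (columns in pairs, control left and tomatidine right); the colour is the CPM as percent of the gene's highest column. Outside subcortical neurons the columns of a pair look alike in most rows, while in subcortical neurons they differ in several, such as Gabra4 and Gabrd. Grm2 stands out in granule neurons, Grik4 in CA3 neurons, Grin2c in astrocytes and Grm3 in oligodendrocytes, astrocytes and deep-layer neurons.

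Granule and CA1 neurons differed in which subunits they carried. Among 38 receptor genes with enough counts, 7 were at least 2-fold higher in granule than in CA1 neurons in both libraries and 5 were at least 2-fold lower, so 12 of 38 passed, where 15.2% of all 12551 genes did. Grm2 (chr9:106643095-106656082), an inhibitory presynaptic receptor, reached 339 CPM (333 to 344) in the control and 323 CPM (316 to 329) in the tomatidine library in granule neurons, against 58.0 and 82.0 CPM in CA1. That was 5.84 and 3.93 times the CA1 level in the respective library, and granule neurons were above every other class in both libraries. The kainate subunits Grik3 (4.89 and 2.63 times), Grik4 (3.48 and 2.64) and Grik2 (2.74 and 2.42) were higher in granule neurons as well. So were Gabrd and Gabra4, subunits known from extrasynaptic GABA-A receptors. Gabrd (chr4:155384980-155398112), which encodes delta, stood at 171 CPM (168 to 175) in the control and 158 CPM (154 to 163) in the tomatidine library in granule neurons and at 40.3 and 46.4 CPM in CA1, 4.25 and 3.42 times as high. Gabra4, its usual alpha partner in forebrain and one of the genes with the arginine codon printed above, stood at 293 CPM in the control and 306 CPM in the tomatidine library in granule neurons and at 131 and 137 CPM in CA1.

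The 5 genes that were lower in granule neurons were Gabra3, Gabrg1, Gabrg3, Grin3a and Grm4. Gabra3 had the widest gap, with 5.74 CPM (5.04 to 6.51) in the control and 7.79 CPM (6.84 to 8.84) in the tomatidine library in granule neurons and 85.8 and 88.6 CPM in CA1. Gabrg3, a less common gamma subunit, was at 9.32 and 12.8 CPM in granule neurons and at 40.2 and 51.4 CPM in CA1 in control and tomatidine respectively. Grm4, a presynaptic receptor of group III, was at 7.0 and 5.48 CPM and 18.2 and 24.0 CPM in the same order. Granule neurons had the lowest level of Gabra3 and of Grm4 among the 7 neuron classes in both libraries.

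Between CA3 and CA1 neurons, 2 receptor genes were at least 2-fold higher in CA3 and 4 at least 2-fold lower, 6 of 38 where 6.73% of all genes passed. Grik4 (chr9:42518135-42944493), the kainate subunit known for the mossy fibre synapse that granule axons make on CA3 neurons, reached 215 CPM (203 to 228) in the control and 264 CPM (251 to 278) in the tomatidine library in CA3. That was 7.84 and 6.90 times the CA1 level (27.5 and 38.3 CPM) and above the level in granule neurons (95.5 and 101 CPM). Among those lower in CA3 were Grin3a, at 7.47 and 11.7 CPM against 30.9 and 32.7 CPM in CA1, Gabrg3, at 15.1 and 16.1 CPM against 40.2 and 51.4 CPM, and Grm8, at 16.3 and 21.7 CPM against 35.0 and 50.6 CPM. Between granule and CA3 neurons 10 of 38 genes passed, 4 higher and 6 lower in granule neurons, where 15.4% of all genes did. Grik3 was 9.09 and 9.35 times as high in granule as in CA3 neurons, Grm2 6.45 and 4.75 times, Gabrd 4.61 and 3.98 times and Gabra4 2.10 and 2.10 times. Grik4, Gria4, Grik1, Grin2d, Grm4 and Gabra3 were the 6 that were lower. Markers of other classes were present in CA3 neurons, those of deep-layer neurons at 453 CPM in control and 388 CPM in tomatidine, those of oligodendrocytes at 228 CPM in control and 279 CPM in tomatidine, those of astrocytes at 95.8 CPM in control and 163 CPM in tomatidine and those of granule neurons at 58.6 CPM in control and 66.7 CPM in tomatidine (against 2624 CPM in control and 2650.5 CPM in tomatidine in granule neurons themselves). The CA3 markers were at 923 CPM in control and 952 CPM in tomatidine, and the part of the other markers in these differences was not tested.

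**Figure D2:**
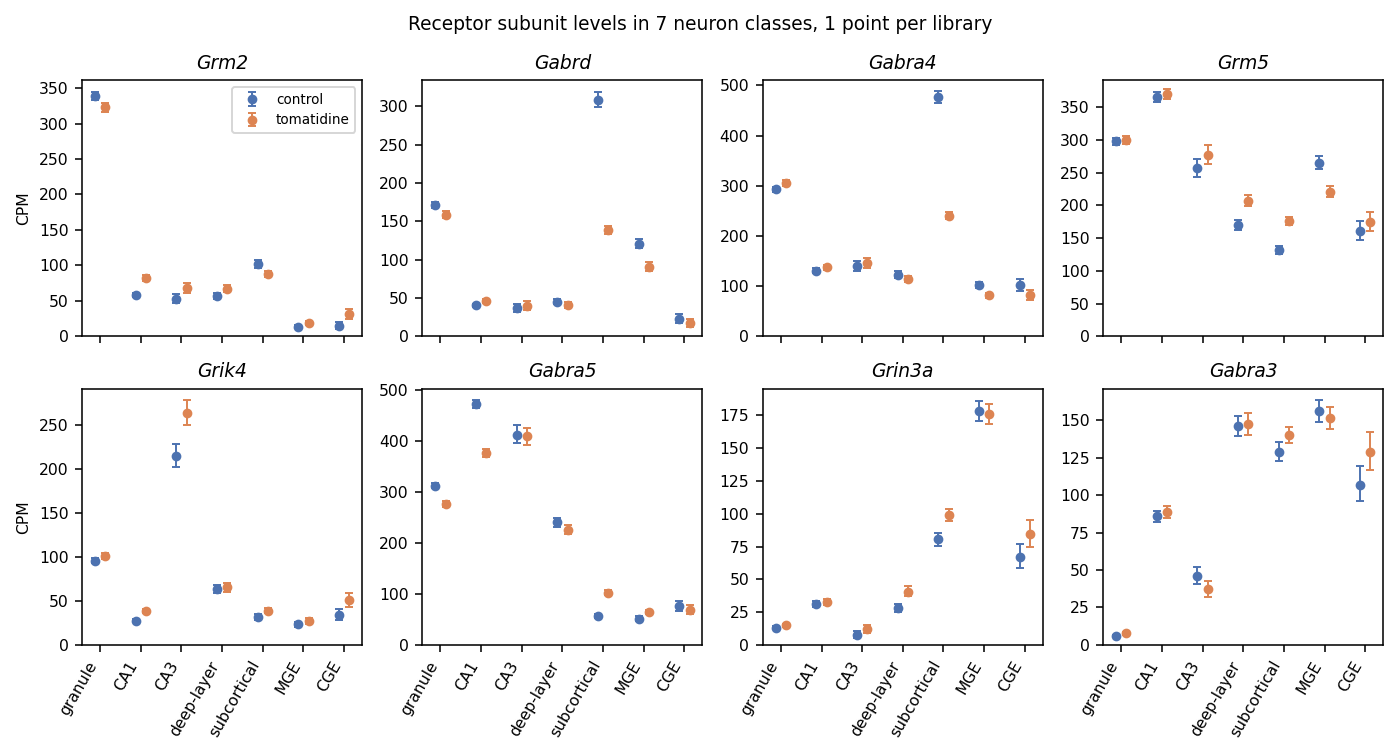
Levels of 8 receptor genes (y axis, CPM on a linear scale from 0) in 7 neuron classes (x axis); each point is 1 library, control or tomatidine, and the bar is the exact Poisson 95% interval. Grm2 is highest in granule neurons and Grik4 in CA3 neurons in both libraries, Gabra3 is near the axis in granule neurons, and Gabrd and Gabra4 differ between the libraries in subcortical neurons.

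Among AMPA subunits, Gria2 was higher in excitatory hippocampal neurons and Gria4 in interneurons. Gria2 was at 1611 CPM in the control and 1729 CPM in the tomatidine library in CA1 and at 1514 and 1659 CPM in granule neurons, but at 512 and 469.5 CPM in MGE interneurons. Its share of the UMIs of the 4 Gria genes was 47.2% (46.9 to 47.5) and 48.5% (48.1 to 48.9) in CA1 of control and tomatidine, 51.7% and 52.8% in CA3 and 61.9% and 61.6% in deep-layer neurons, and 24.9% (24.3 to 25.4) and 24.5% (24.0 to 25.1) in MGE interneurons. The share in CGE interneurons was 44.0% and 45.2%. Shares mix genes with different probes, so they are read here only across classes. Gria4 ran the other way: it was at 26.4 and 30.9 CPM in granule neurons and 50.9 and 67.6 CPM in CA1, and at 299 and 283 CPM in MGE interneurons, 5.87 and 4.19 times the CA1 level. Gria1 was at 1511 and 1485 CPM in CA1 and at 299 and 341 CPM in deep-layer neurons, the class where its share of the Gria UMIs was lowest in both libraries (19.2% and 19.5%). Gria3 was highest in CA1, at 239 and 283 CPM, with 213 and 253 CPM in deep-layer neurons, so the classes overlapped between the libraries.

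The kainate subunits each had their own distribution. Grik3 in deep-layer neurons was at 366 CPM in the control and 366 CPM in the tomatidine library, at least 2.5 times the next neuron class. Grik1 was low in excitatory hippocampal neurons, with 2.13 and 2.05 CPM in granule neurons and 3.64 and 4.95 CPM in CA1, and was at 149 and 171 CPM in MGE and 146 and 160.5 CPM in CGE interneurons. The interneuron levels of Grik1 were 40.8 and 34.5 times (MGE) and 40.1 and 32.4 times (CGE) the CA1 level, and the levels of the 2 interneuron classes overlapped between the libraries. Grik2 was highest in CGE interneurons in control (193 CPM) and in granule neurons in tomatidine (208 CPM), so the order of these 2 classes was not the same in the libraries. Grik5 varied less, from 115 CPM in subcortical neurons of the control to 334 CPM in CA3 of the tomatidine library. In CA3, Grik4 made up 33.8% and 36.2% of the Grik UMIs, against 8.2% and 9.43% in CA1.

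Among NMDA subunits, Grin1, Grin2a and Grin2b were each highest in CA1 in both libraries. Grin1 differed little between classes, from 662 CPM in MGE interneurons to 1047 CPM in CA1. Grin2a, the subunit that becomes common in the mature brain, was at 1071 CPM in the control and 1072 CPM in the tomatidine library in CA1 and at 256 and 291 CPM in MGE and 155 and 219 CPM in CGE interneurons. The share of Grin2a among the Grin2 UMIs was close in granule, CA1 and CA3 neurons, 50.04% and 51.6%, 47.8% and 48.3% and 45.9% and 47.2%, and it was 17.9% and 24.6% in CGE interneurons. Grin2d, known from interneurons, was at 152 and 160.5 CPM in CGE and 109 and 112 CPM in MGE interneurons, but at 1.96 and 2.05 CPM in granule neurons and 1.72 and 5.0 CPM in CA1. Grin3a was highest in MGE interneurons among neurons, at 179 CPM in the control and 176 CPM in the tomatidine library, 2.66 and 2.08 times the CGE level. Grin3b, with 124 UMIs in all neuron classes, was highest in subcortical neurons and overlapped the next class, and in OPCs it was at 7.80 and 5.39 CPM. The delta receptor Grid1, which is known as an adhesion molecule at synapses, was highest in CGE interneurons among neurons, at 141 and 121 CPM.

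Among the metabotropic receptors, Grm5 was highest in CA1, at 366 CPM in the control and 370.2 CPM in the tomatidine library. It took 45.2% and 39.3% of the Grm UMIs in CA1 and 23.7% and 23.0% in granule neurons. Of the group II receptors, Grm2 was a granule gene, as given above, and Grm3 (chr5:9485541-9725170) was at 212 CPM in the control and 206 CPM in the tomatidine library in deep-layer neurons, at least 3.41 times the next neuron class. The group III receptor Grm4 was highest in subcortical neurons (204 and 140.2 CPM), Grm7 in CA3 (376 and 414 CPM) and Grm8 in deep-layer neurons (112 and 132 CPM). Of the 33 subunits for which a share of the gene group was computed, 7 differed by at least 10 percentage points between granule and CA1 neurons in both libraries.

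**Figure D3:**
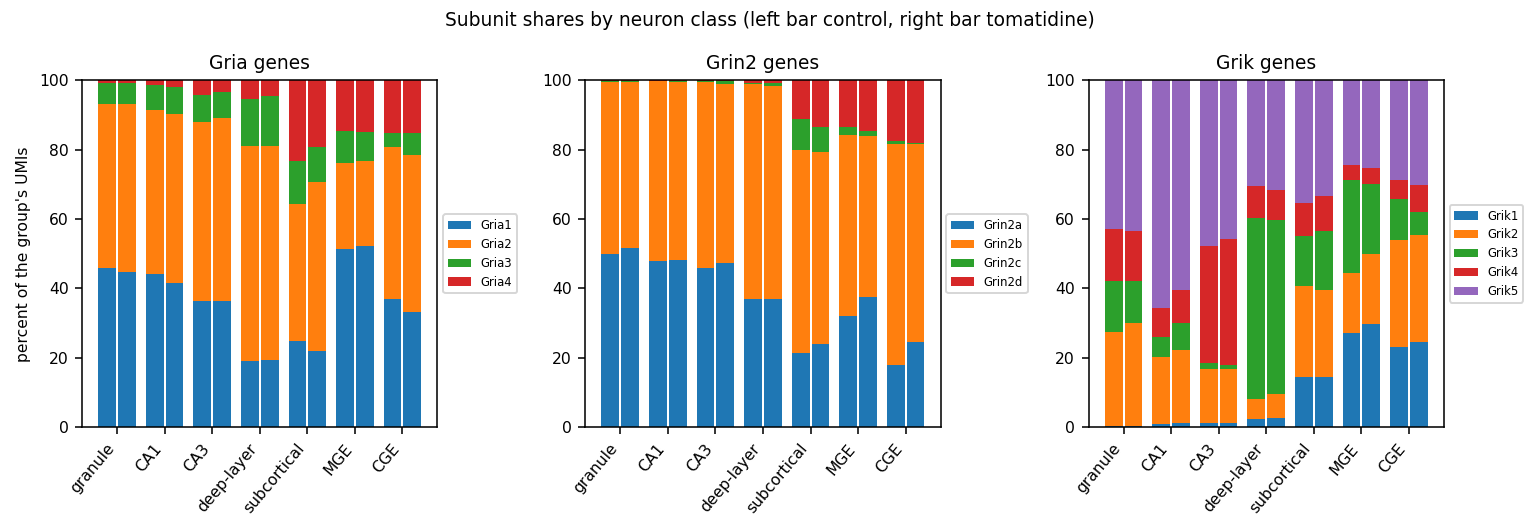
Stacked bars of the percent of UMIs that each subunit gene took within 3 gene groups (y axis, 0 to 100%) in 7 neuron classes (x axis, control left bar, tomatidine right bar). Gria2 is narrower and Gria4 wider in MGE interneurons than in granule, CA1 and CA3 neurons, Grik3 takes 52.4% and 49.96% of the deep-layer bars, and Grik4 is widest in CA3.

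Among GABA-A subunits, Gabra5 was highest in pyramidal neurons. Gabra5 (chr7:57407672-57510059), an extrasynaptic alpha subunit long tied to hippocampal pyramidal neurons, was at 473 CPM in the control and 376 CPM in the tomatidine library in CA1 and at 413 and 409 CPM in CA3, but at 51.5 and 64.1 CPM in MGE interneurons. CA1 was the highest class for Gabra5 in control and CA3 in tomatidine. In CA3, Gabra5 took 44.5% and 44.3% of the Gabra UMIs. Gabra2 was at 108 and 125, 108 and 128 and 103 and 125 CPM in granule, CA1 and CA3 neurons, which overlapped between the libraries, and at 13.8 and 17.4 CPM in deep-layer neurons. Gabra4 and Gabrd were high in granule neurons and higher still in the subcortical neurons of the control (477 and 309 CPM), with 240.5 and 139 CPM in the tomatidine library. Both alpha4 and delta are known from thalamus. For Gabrd, MGE interneurons had 121 and 91.0 CPM, 5.36 and 5.36 times the CGE level.

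Beta and gamma genes were broader. Gabrb2 took 32.0% and 31.5% of the Gabrb UMIs in CA3 and 71.4% and 72.7% in MGE interneurons. Gabrb1 was at 99.9 and 108 CPM in granule neurons and overlapped the next class. Gabrg3 took 2.56% and 3.74% of the Gabrg UMIs in granule neurons and 24.2% and 26.9% in MGE interneurons. Of the rare subunits, Gabrr2, a rho subunit, was at 8.07 CPM (5.22 to 11.9) in the control and 14.7 CPM (10.8 to 19.7) in the tomatidine library in CGE interneurons, at least 5.75 times any other neuron class, and Gabrq (theta) at 6.49 and 12.6 CPM and Gabre (epsilon) at 1.74 and 2.32 CPM in subcortical neurons. The Gabrr2 levels rest on 25 and 46 UMIs, and with the stricter gate Gabrr2 did not keep this top class in both libraries. Neighbouring genes did not share 1 class: on chromosome 5, Gabra4 was high in granule and subcortical neurons, Gabra2 in granule, CA1 and CA3 neurons, and Gabrg1 and Gabrb1 in astrocytes.

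Of the GABA-B subunits, Gabbr1 ranged among neurons from 574 CPM in granule neurons of the tomatidine library to 821 CPM in CGE interneurons of the control. Gabbr2 was highest in subcortical neurons, at 693 CPM in the control and 466 CPM in the tomatidine library, and at 217 and 249 CPM in CGE interneurons.

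The inhibitory classes differed from CA1 in more receptor genes than from each other, and the same held for all genes. In each of these comparisons a larger percent of receptor genes than of all genes passed: 39.5% (MGE against CA1), 44.7% (CGE against CA1) and 12.8% (MGE against CGE). MGE interneurons passed the 2-fold rule against CA1 in 15 of 38 genes (8 higher, 7 lower, with 17.8% of all genes passing), and CGE interneurons in 17 of 38 (8 higher, 9 lower, with 15.7% of all genes). In both comparisons Grik1, Grin2d, Gria4, Grin3a and Gabrg1 were higher and Gria2, Grin2a, Grin2b, Gabra5 and Grm2 lower in the interneurons, and the comparisons share the CA1 cells. Grin2d was 88.3 and 32.1 times as high in CGE interneurons as in CA1 in control and tomatidine. Between MGE and CGE interneurons 5 of 39 genes passed, where 4.15% of all genes did: Gabrd, Grin3a and Grin2c were higher in MGE, and Gabrr2 and Gabra2 in CGE interneurons.

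Astrocytes, OPCs and oligodendrocytes each had receptor genes at several times the level of microglia. All glia held UMIs of neuron genes, and microglia give a measure of that background: Snap25, Syt1, Rbfox3 and Stmn2, which are markers of neurons, summed in them to 977 CPM in control and 1245 CPM in tomatidine, against 4571 CPM in control and 4659 CPM in tomatidine in CA1. In astrocytes the sum was 1086 CPM in control and 1192 CPM in tomatidine, in OPCs 1028 CPM in control and 1230 CPM in tomatidine. In oligodendrocytes it was lower, 635 CPM in control and 703 CPM in tomatidine. Receptor levels of glia near the microglial level are therefore read as background. Grin2c (chr11:115249169-115267243), an NMDA subunit, was in astrocytes at 496 CPM (477 to 516) in the control and 464 CPM (448 to 481) in the tomatidine library, above microglia (15.6 and 12.6 CPM) and above all neuron classes. Astrocytes also led in Gabrg1 (179.7 CPM in the control and 192 CPM in the tomatidine library, with 8.90 and 13.9 CPM in microglia) and in Gabrb1 (168 and 179.5 CPM), a gamma and a beta subunit from the same cluster on chromosome 5. Against oligodendrocytes, 13 of 39 receptor genes were at least 2-fold higher in astrocytes and 4 lower, 17 in all, where 27.7% of all genes passed. Some of the 13 were near the microglial level, such as Grin2d (11.3 and 12.2 CPM in astrocytes, 8.53 and 9.12 CPM in microglia). The part of the neuron background in this count was not tested. Grin2c was 40.1 and 49.0 times and Gabrg1 22 and 23.8 times the oligodendrocyte level.

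Oligodendrocyte precursors, which receive synapses from neurons, differed from oligodendrocytes in most of the receptor genes. Of 39 genes, 23 were at least 2-fold higher in OPCs than in oligodendrocytes and 2 were lower, 25 in all, where 28.2% of all genes passed. Some of the 23 were near the microglial level, such as Gabra2 (28.6 and 23.7 CPM in OPCs, 18.2 and 26.5 CPM in microglia). The neuron marker sum, given above, was also higher in OPCs than in oligodendrocytes, and its part in this count was not tested. Gria4 was at 308 CPM (284 to 334) in the control and 303 CPM (278 to 329) in the tomatidine library in OPCs, with 299 and 283 CPM in MGE interneurons, and Gria2 at 783 and 763 CPM against 184 and 253 CPM in microglia. Grin3a (chr4:49661611-49845744) reached 309.9 CPM (286 to 336) in the control and 314 CPM (289 to 341) in the tomatidine library, more than in any neuron class, and was 39.6 and 27.8 times the oligodendrocyte level. Grid1 (246 and 244 CPM) was also higher in OPCs than in any neuron class. Grik3 was at 194 and 178 CPM and Gabra3 at 70.7 and 77.6 CPM. Of markers from other classes, those of oligodendrocytes summed to 1378 CPM in control and 737 CPM in tomatidine in OPCs. Those of MGE interneurons summed to 811 CPM in control and 806 CPM in tomatidine, a list with Sox6 and Nxph1, which OPCs are known to express. The part of both in the OPC levels was not tested.

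Oligodendrocytes led all 11 classes in Grm3, at 459 CPM (449 to 469) in the control and 447 CPM (435 to 458) in the tomatidine library, with astrocytes next (303 and 298 CPM) and microglia at 45.6 and 52.1 CPM. They also had the highest level of Gabrr2, 31.8 CPM in the control and 28.2 CPM in the tomatidine library, with 2.96 and 1.74 CPM in microglia. Gabbr1 was at 526 and 540.3 CPM in oligodendrocytes, 437 and 415 CPM in OPCs, 376 and 418 CPM in astrocytes and 212 and 246 CPM in microglia. In microglia Gria2 was at 184 and 253 CPM. Both genes were lower in microglia than in the other glia, except for Gria2 in oligodendrocytes.

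**Figure D4:**
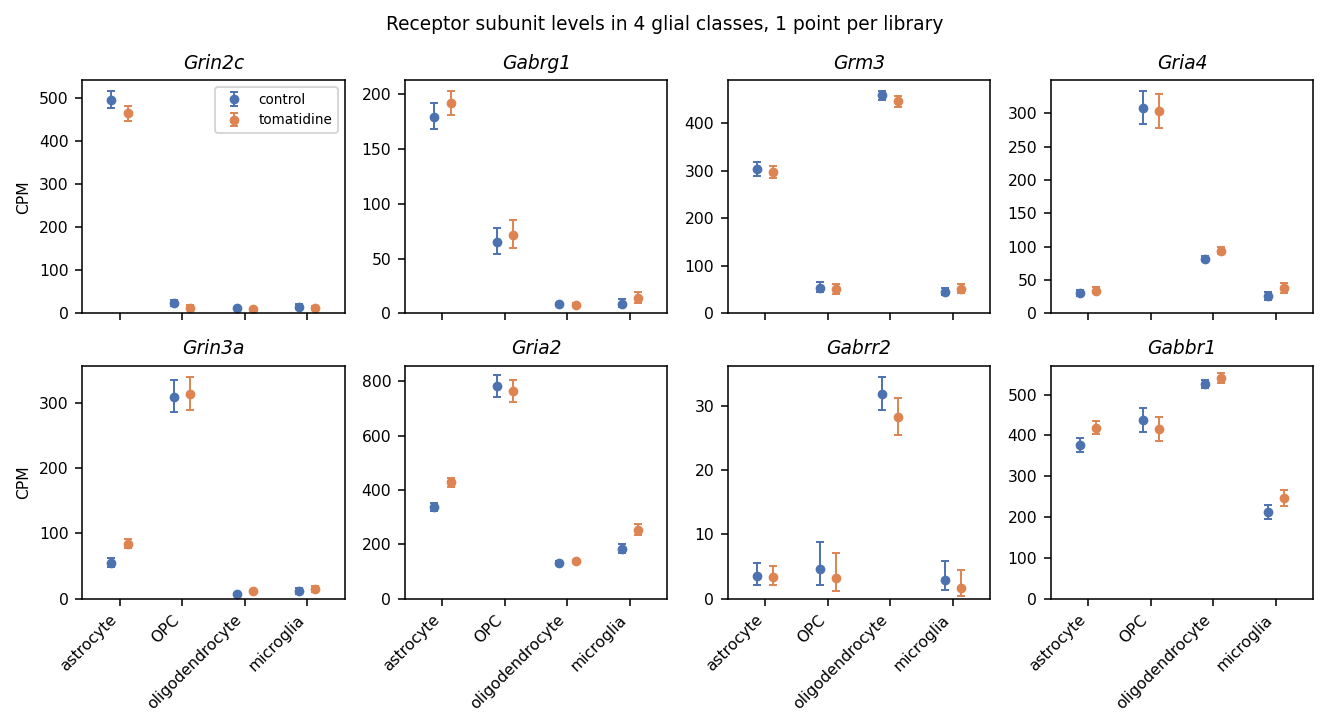
Levels of 8 receptor genes (y axis, CPM on a linear scale from 0) in 4 glial classes (x axis); each point is 1 library and the bar is the exact Poisson 95% interval. Grin2c and Gabrg1 are highest in astrocytes, Gria4, Grin3a and Gria2 in OPCs, and Grm3, Gabrr2 and Gabbr1 in oligodendrocytes, in both libraries.

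Between the diets the receptor genes differed little in granule neurons. Values in brackets after a log2 ratio are its 95% interval. The median log2 ratio of tomatidine over control was 0.07 in granule neurons (0.00 to 0.15, the medians of the genes' lower and upper bounds), where all genes had 0.03. A difference of at least 0.32 on the log2 scale (25% higher or 20% lower) was found for 4 of 38 receptor genes, 3 higher and 1 lower in tomatidine, where 6.45% of all genes passed. Gabrg3 was at 9.32 CPM in control and 12.8 CPM in tomatidine (log2 ratio 0.46, 0.26 to 0.67), Gabrg1 at 4.16 CPM in control and 5.80 CPM in tomatidine (0.48, 0.17 to 0.79) and Gabra3 at 5.74 CPM in control and 7.79 CPM in tomatidine (0.44, 0.18 to 0.70), all genes that were low in granule neurons. Grm4 was lower in tomatidine (-0.35, -0.63 to -0.08). The log2 ratios of abundant genes were smaller: Gria2 was at 0.13 (0.12 to 0.15), Grin2a at 0.14 (0.11 to 0.16), Gabra5 at -0.17 (-0.21 to -0.13) and Grik3 at -0.19 (-0.26 to -0.12).

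In CA1 neurons more of the receptor genes were past this log2 difference of 0.32. Their median was 0.18 (0.07 to 0.26), where all genes had 0.06, and 14 of 38 genes were past 0.32 upward and 1 downward. Of all genes in CA1, 16.1% were past it, 14.3% upward and 1.78% downward. Grik3 was at 19.4 CPM in control and 31.5 CPM in tomatidine (0.70, 0.53 to 0.87), Gabrg1 at 8.58 CPM in control and 13.6 CPM in tomatidine (0.67, 0.41 to 0.93), Grm8 at 35.0 CPM in control and 50.6 CPM in tomatidine (0.53, 0.40 to 0.66), Grm2 at 58.0 CPM in control and 82.0 CPM in tomatidine (0.50, 0.40 to 0.60) and Grik4 at 27.5 CPM in control and 38.3 CPM in tomatidine (0.48, 0.33 to 0.63). Grin2d had the highest ratio, 1.53 (1.01 to 2.08), on 44 and 105 UMIs. Grik1, Grik2, Gria4, Grin2c, Gabrg3, Grm4 and Grm7 were upward as well. None of the 14 had CA1 as its highest neuron class in either library. The 6 genes with their highest neuron level in CA1 in both libraries were all under 0.32: Gria3 at 0.25 (0.20 to 0.30), Gria2 at 0.10 (0.08 to 0.12), Grin2a at 0.00 (-0.02 to 0.03), Grin2b at -0.03 (-0.06 to -0.01), Grm5 at 0.02 (-0.03 to 0.06) and Grin1 at 0.05 (0.03 to 0.08). The downward gene was Gabra5, at 473 CPM in control and 376 CPM in tomatidine (-0.33, -0.37 to -0.29).

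Markers of some other classes were higher in the CA1 neurons of the tomatidine library, and markers of others were lower. Those of CGE interneurons summed to 9.05 CPM in control and 22.7 CPM in tomatidine, of subcortical neurons to 106 CPM in control and 149.6 CPM in tomatidine, of GABAergic neurons to 40.8 CPM in control and 52.9 CPM in tomatidine and of astrocytes to 131 CPM in control and 183 CPM in tomatidine, while the CA1 markers themselves were at 1882 CPM in control and 1751 CPM in tomatidine. Lower in tomatidine were, among others, the markers of deep-layer neurons (130 CPM in control and 113 CPM in tomatidine). So were those of CA2 neurons (134 CPM in control and 118 CPM in tomatidine) and oligodendrocytes (332 CPM in control and 300 CPM in tomatidine). Median UMIs per CA1 cell were 26245 and 19203. The part of these in the CA1 ratios was not tested. With a gate that asked for a 4-fold lead over other classes and at least 10 marker UMIs, the CA1 median was 0.11 and 11 of 36 genes were past 0.32. Grin2d was then at 1.04, Grin2c at -0.13, Grik3 at 0.68 and Gabra5 at -0.30. The limit of 6000 genes per cell from the study's quality control kept 11.9% and 18.6% of the CA1 UMIs of control and tomatidine. With it the median was 0.067, 6 of 34 genes were past 0.32 and Grik4 was at -0.17. Gabra5 was lower in tomatidine in CA1 at the reported settings and the 7 others of cells, gate and scaling, from -0.40 to -0.26 on the log2 scale.

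**Figure D5:**
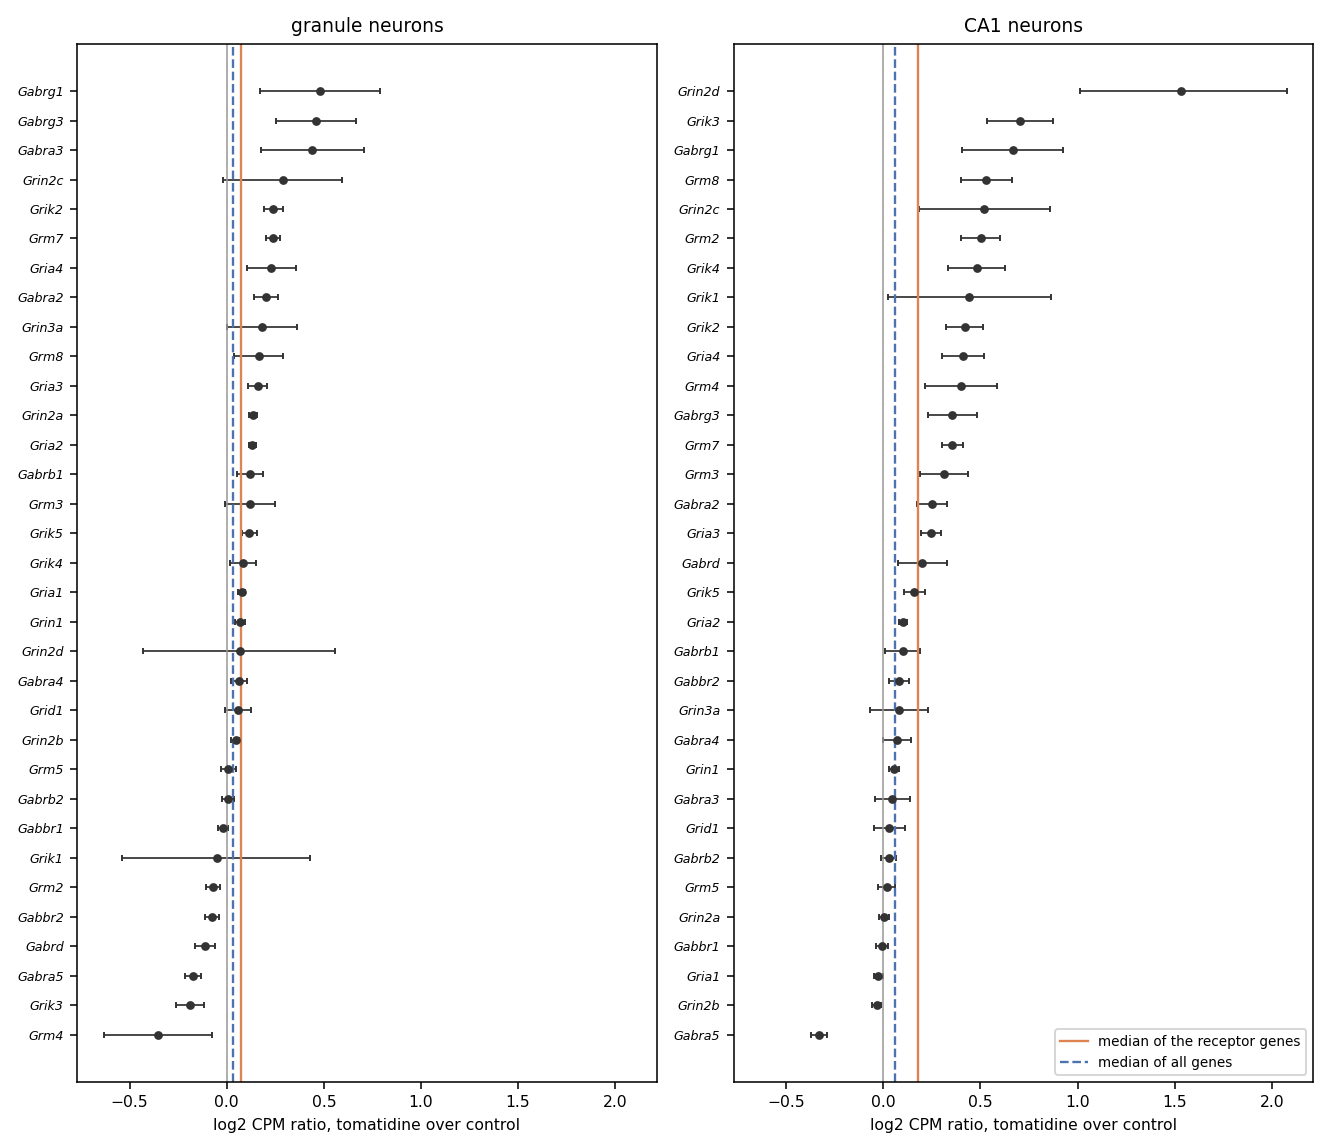
The log2 ratio of CPM in tomatidine over control (x axis) for receptor genes with at least 100 UMIs in granule neurons (left) and CA1 neurons (right), ordered by ratio; bars are exact binomial 95% intervals, the solid line is the median of the receptor genes and the dashed line that of all genes. In CA1 the genes spread from -0.33 for Gabra5 to 1.53 for Grin2d and the median lies to the right of that of all genes, and in granule neurons most genes lie close to 0.

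In CA3 neurons the median was 0.08 (-0.09 to 0.23), and 5 of 33 genes were past 0.32, 4 higher and 1 lower, where 14.6% of all genes were. Grm2 (0.37, 0.14 to 0.61), Grm4 (0.34, -0.05 to 0.74) and Grm3 (-0.41, -0.67 to -0.15) were among them, with Grin3a (0.65, 0.04 to 1.27) and Grm8 (0.41, -0.01 to 0.84). Grik4, highest in CA3, was at 0.30 (0.18 to 0.41), and Gabra3 at -0.31 (-0.59 to -0.03), which was 0.11 with all deposited cells and -0.02 with the study's limit. Markers of GABAergic neurons summed to 38.1 CPM in control and 67.2 CPM in tomatidine in CA3 neurons and those of OPCs to 20.8 CPM in control and 7.37 CPM in tomatidine, with those of astrocytes given above, and their part in the CA3 ratios was not tested. With the stricter gate 10 of 27 genes were past 0.32 in CA3, and Grm2 was at -0.48 and Grm4 at -1.08. With the study's limit 2 of 26 genes were, and Grm3 was at 0.021. In MGE interneurons 5 of 38 genes passed (2 higher, 3 lower, with 11.2% of all genes) and the median was 0.04. Grm8 (0.45, 0.25 to 0.66) and Grm2 (0.44, 0.14 to 0.74) were higher in tomatidine, and Gabrd (-0.41, -0.53 to -0.29), Grin2c (-0.46, -0.79 to -0.14) and Grik3 (-0.34, -0.44 to -0.24) were lower. In CGE interneurons 10 of 37 genes passed (7 higher, 3 lower, with 17.9% of all genes) and the median was 0.12. That median was -0.04 with all deposited cells, 0.02 with the study's limit and 0.04 with the mean of single-cell CPM. Gria3 was at 53.6 CPM in control and 94.8 CPM in tomatidine (0.82, 0.55 to 1.11), Grm8 at 0.76 (0.49 to 1.04) and Grik3 at -0.74 (-1.05 to -0.43). Grin3a, Grik4, Grm2 and Grin2a were also higher in CGE interneurons of the tomatidine library, and Gabrd and Gabrg1 also lower. The classes' own markers were lower in tomatidine too, 7724 CPM in control and 5521 CPM in tomatidine for the MGE list in MGE interneurons and 4381 CPM in control and 3425 CPM in tomatidine for the CGE list in CGE interneurons, and the part of that in the ratios was not tested. The count was 2 of 38 with the stricter gate and 10 of 33 with the study's limit in MGE interneurons. With that limit it was 5 of 28 in CGE interneurons, where Gabrg1 was then at 0.19 and Grin3a at -0.24.

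Across granule, CA1, CA3, MGE and CGE neurons, 33 receptor genes had enough counts in every class. Of these, 9 were higher in tomatidine in all 5 classes (17.36% of all 8748 such genes were) and 3 were lower in all 5 (8.23%). The 9 were Gabra2, Gabrb1, Gabrg3, Grik2, Grik4, Grik5, Grin2a, Grm7 and Grm8, and Gabbr1 was among the 3. Many of the intervals held 0, and the interval was clear of 0 in all 5 classes for 1 of the 9, Grm7, and for 0 of the 3. Of the 9, 5 kept the direction in all 5 classes with the study's limit, 6 with the mean of single-cell CPM, 7 with all deposited cells and 7 with TMM factors, and 3 (Grik5, Grm7 and Grm8) did so in each of the 7 other settings. Gabbr1 did not with the study's limit, the stricter gate or the mean of single-cell CPM. Grik5 ran from 0.12 to 0.16 on the log2 scale. Gabbr1 ran from -0.12 to -0.01. All of these differences were under 0.32 except for Gabrg3 in granule neurons and CA1, Grik2 in CA1, Grik4 in CA1 and CGE, Grin2a in CGE, Grm7 in CA1, and Grm8 in CA1, CA3, MGE and CGE.

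In astrocytes 6 of 37 genes were past 0.32, 5 higher and 1 lower in tomatidine, where 11.3% of all genes were, and the median was 0.11. Grin3a (0.61, 0.40 to 0.82), Gria1 (0.36, 0.27 to 0.46) and Gria2 (0.34, 0.26 to 0.43) were among those that were higher. The lower gene was Gabrd (-0.87, -1.25 to -0.50), at 28.8 and 15.8 CPM in astrocytes and 16.3 and 21.7 CPM in microglia, so it was near background. The receptor genes that were highest in astrocytes were within 0.32 of 0: Grin2c was at -0.10 (-0.17 to -0.02), Gabrg1 at 0.10 (-0.03 to 0.22) and Gabrb1 at 0.09 (-0.04 to 0.22). The sum of the neuron markers in astrocytes, given above, was higher in tomatidine as well, and its part was not tested. With the mean of single-cell CPM 11 of 37 genes were past 0.32 in astrocytes, and with the stricter gate 11 of 32. In OPCs 6 of 33 genes passed, 5 higher and 1 lower, where 17.5% of all genes did, with a median of 0.09. Grin2d (0.46, -0.04 to 0.96), Grm2 (0.39, -0.20 to 0.99) and Grm4 (0.33, -0.20 to 0.86) were among those higher in tomatidine and Gabrb1 was lower (-0.42, -0.88 to 0.03), while of the genes high in OPCs Gria4 was at -0.02 (-0.19 to 0.15) and Grin3a at 0.02 (-0.15 to 0.19). Grm2 was near background in OPCs, with 23.4 and 30.7 CPM against 14.8 and 31.3 CPM in microglia. The sum of oligodendrocyte markers in OPCs, given above, was lower in tomatidine and that of fibroblast markers was 10.4 CPM in control and 42.0 CPM in tomatidine, and their part in the OPC ratios was not tested. The OPC count was 1 of 33 with the mean of single-cell CPM. In oligodendrocytes Grm3 was at -0.04 (-0.09 to 0.01) and Gabbr1 at 0.04 (-0.01 to 0.08). The median over the receptor genes was 0.02 in oligodendrocytes, 0.11 in deep-layer neurons and 0.41 in microglia. In microglia 16 of 26 genes were past 0.32 upward and 1 downward, where 12.9% and 5.4% of all genes were. The neuron marker sum of microglia, given above, was also higher in tomatidine, and its part in these ratios was not tested.

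The proteins that work with these receptors were counted in 5 lists. Of 14 auxiliary proteins of AMPA and kainate receptors, all measured in granule and CA1 neurons, none was past 0.32 in granule neurons (median 0.07) and 2 were in CA1, both higher (median 0.16), where 16.1% of all genes were past it in CA1. In MGE interneurons 3 of 14 were past 0.32, all lower (median -0.06), and in CGE interneurons 1 of 13 was higher and 4 were lower (median -0.10), where 11.2% and 17.9% of all genes were past it. Shisa9, which modulates AMPA receptors in the dentate gyrus, had the highest ratio in granule, CA1 and CA3 neurons, 0.22 (0.17 to 0.27), 0.61 (0.48 to 0.75) and 0.27 (-0.12 to 0.67), and its level was 161 and 188 CPM in granule neurons and 31.3 and 47.9 CPM in CA1. Lowest were Cnih3 in granule neurons (-0.20, -0.25 to -0.15), Cnih2 in CA1 (-0.30, -0.35 to -0.24) and Gsg1l in CA3 (-0.47, -1.01 to 0.07). Neto1, an auxiliary protein of kainate receptors, was at 352 and 398 CPM in CA3 and 86.2 and 101 CPM in CA1. Cacng4 was at 905 and 926 CPM in OPCs and at 2.20 and 2.53 CPM in granule neurons.

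Of 19 scaffolds of excitatory synapses, none was past 0.32 in granule neurons, 1 in CA1 (Dlg1, 0.38, 0.30 to 0.46) and 2 in CA3, Shank1 (0.41, 0.24 to 0.59) and Shank3 (0.38, 0.27 to 0.48), all higher in tomatidine. Dlg3 had the lowest ratio in granule, CA1 and CA3 neurons (-0.16 (-0.20 to -0.12), -0.22 (-0.27 to -0.16) and -0.18 (-0.31 to -0.04)). In MGE interneurons 3 of 19 scaffolds were past 0.32, all lower, and in CGE interneurons 1 of 18, higher. Of all genes, 6.45% were past 0.32 in granule neurons, 16.1% in CA1, 14.6% in CA3, 11.2% in MGE and 17.9% in CGE interneurons. The same shares apply to the inhibitory list that follows. Homer3 was at 228 and 254 CPM in CA3 and 34.2 and 34.2 CPM in CA1. Of the 14 scaffolds and auxiliary proteins of inhibitory synapses, 13 were in the files and 11 measured in granule neurons, none of them past 0.32. In CA1, 1 of 12 was (Insyn2a, 0.34, 0.06 to 0.63) and in CA3 1 of 11 (Trak2, 0.32, 0.16 to 0.49), while Gabarap had the lowest ratio in granule neurons (-0.26, -0.34 to -0.17) and CA3 (-0.27, -0.50 to -0.04). In MGE and CGE interneurons 1 of 12 was past it, Kctd12, an auxiliary subunit of GABA-B receptors, lower in both (-0.60 and -1.59).

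Genes for uptake and synthesis of glutamate and GABA, most of which belong to glia or interneurons, were past 0.32 upward in tomatidine in 1 of 9 in granule neurons, 4 of 9 in CA1 and 3 of 9 in CA3, and none downward, where 6.45%, 16.1% and 14.6% of all genes were past it either way. In MGE interneurons 1 of 9 was, upward, and in CGE interneurons 3 were upward and 1 downward, Abat, the enzyme that breaks down GABA (-0.61). Of all genes, 11.2% were past 0.32 in MGE and 17.9% in CGE interneurons. Slc6a11, an astrocyte GABA transporter, was at 0.64 (0.54 to 0.73) in granule neurons. In astrocytes themselves it was at 0.37, with 2246 CPM in control and 2904 CPM in tomatidine. Granule neurons held 122 CPM in control and 154 CPM in tomatidine of astrocyte markers, with the sums for CA1 and CA3 given above, and the part of these was not tested. Of 5 glycine receptor subunits, 2 were measured in granule neurons, 3 in CA1 and 2 in CA3, none past 0.32. In MGE interneurons 1 of 4 was past it, where 11.2% of all genes were. Glrb, the beta subunit that anchors glycine receptors, was at 214 and 216 CPM in CA1.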

How the data were processed

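The authors deposited raw UMI counts per cell and gene for both libraries, made with a probe kit for fixed RNA and aligned to mm10 with Cell Ranger. The processing notes name version 8.0.0 and the header of the matrix names 7.1.0. Total UMIs of the kept cells and classes set the counting intervals. From these counts, cells were kept after the study's methods (at least 500 UMIs, over 250 genes, a log10 ratio of genes to UMIs over 0.8, mitochondrial share below 20%). Each of 105 marker genes (3 not found in the files) was scaled to its rate in the 200th highest cell, and a cell joined a class with a mean score of at least 0.1, at least 5 UMIs of at least 2 markers and a 2-fold lead over the next class. This scoring was set after the data were seen. No doublet caller was run, and cells with markers of 2 classes lacked the lead. Of the unassigned cells 2945 had a lead between 1.5 and 2, and 5105 assigned cells had one between 2 and 3.

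UMIs were summed per class and library and divided by the class total (CPM). Genes with at least 100 UMIs over both libraries were compared between libraries, past a log2 difference of 0.32 either way (25% higher or 20% lower), and between classes where both libraries gave at least 2-fold the same way. Exact Poisson, conditional binomial and Clopper-Pearson intervals were used (Python 3.11.15, numpy 2.4.6, scipy 1.17.1, pandas 2.3.3). The scripts were tested on simulated data. Alternatives were TMM factors (edgeR 4.0.16 in R 4.3.3), the mean of single-cell CPM, a stricter gate, other cell filters and a lower count minimum.

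Members and lists were chosen with earlier results of these data known. Genes named were, per family, the 3 with the largest ratio of the highest to the second neuron class, those with the highest family share in granule, CA1 and CA3 neurons, the 2 highest and 2 lowest library ratios per class among genes with at least 200 UMIs, the 2 highest genes per glial class, a list of 14 textbook subunits, and the 2 highest and 2 lowest ratios per pathway list. Genes outside this rule (Gabra2, Gabra6, Gabrb1, Gabrb2, Gabrp, Gabrr1, Gabrr3, Gria1, Grid1, Grik1, Grik2, Grin1, Grin3b, Grm6, Neto1, Cacng4 and Homer3, and Grin2d in CA1), and levels or ratios given for a gene outside the class in which the rule chose it, were named after their values were seen. Some genes of these families and lists are counted but not reported here by name. Sequences and positions came from the GENCODE vM21 annotation of GRCm38.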

Additional observations from a re-analysis of the deposited data

Results flagged for a closer look

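Grik3, Grin2c and Grm4 were past a log2 ratio of 0.32 upward in 1 or more neuron classes and past it downward in others, with intervals on either side of 0. Gabrg1 was past 0.32 both ways too, at 0.67 in CA1 and 0.48 in granule neurons and at -0.37 in CGE interneurons. The CGE value rests on 117 UMIs in control and 91 in tomatidine. The remaining receptor genes with opposite directions had smaller ratios in at least 1 direction. Whether the classes differ was not tested, since each group is 1 library. Grik3 was at 0.70 (0.53 to 0.87) in CA1 neurons, -0.34 (-0.44 to -0.24) in MGE interneurons and -0.74 (-1.05 to -0.43) in CGE interneurons. Its levels were 19.4 CPM in control and 31.5 CPM in tomatidine in CA1, and 74.2 CPM in control and 44.5 CPM in tomatidine in CGE interneurons. Grin2c was at 0.52 (0.18 to 0.86) in CA1 and -0.46 (-0.79 to -0.14) in MGE interneurons, on 138 and 163 UMIs in CA1 and 194 and 140 UMIs in MGE interneurons. Under the stricter gate the CA1 ratio of Grin2c was -0.13. Grm4, a presynaptic receptor, was at 0.40 (0.21 to 0.58) in CA1 and -0.35 (-0.63 to -0.08) in granule neurons, the class with its lowest level.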

How the results depend on the processing

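No paired analysis was possible because each group is 1 library. Of 124 summary values under 8 alternatives (medians, counts past 0.32 log2, shared top classes and subunit shares), 110 stayed within the interval or within 1.5 times the count, and 14 did not. With the study's limit of 200 to 6000 genes per cell, the CA1 median was 0.067 in place of 0.18. The counts past 0.32 were then 6 of 34 genes in place of 15 of 38 in CA1 and 2 of 26 in place of 5 of 33 in CA3. They were 10 of 33 in place of 5 of 38 in MGE and 5 of 28 in place of 10 of 37 in CGE interneurons. That limit kept 11.9% and 18.6% of the CA1 UMIs of control and tomatidine. With the stricter gate the counts were 10 of 27 in CA3, 2 of 38 in MGE interneurons and 11 of 32 in place of 6 of 37 in astrocytes. With the mean of single-cell CPM they were 9 of 38 in CA1, 11 of 37 in astrocytes and 1 of 33 in place of 6 of 33 in OPCs. In CA3 the count was 10 of 37 with all deposited cells and 3 of 31 without the top 5% of UMIs. In MGE interneurons it was 8 of 42 with genes of at least 20 UMIs. The shares of all genes in these settings are not given, so the counts do not show whether receptor genes are unusual there. Of the log2 ratios of the highest and lowest genes per class, 151 were within their interval or spread, 40 moved and 5 reversed. These 5 were all of ratios past 0.32: Grm3 in CA3 (0.021 with the study's limit), Grm4 (-1.08) and Grm2 (-0.48) in CA3 with the stricter gate, and Gabrg1 in CGE interneurons (0.19 with the study's limit, 0.12 with the mean over cells). Ratios under 0.32 changed sign too, such as Gabra3 in CA3 (0.11 with all deposited cells) and Grin2a in OPCs (-0.21, and 0.18 with the study's limit). Other ratios given above also changed sign, such as Grik4 in CA1 (-0.17 with the study's limit). The cause was not tested.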
